A study of Macaca mulatta with 6 samples.

Results

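The nuclear-encoded subunits of oxidative phosphorylation were examined in serotonin neurons of the dorsal raphe nucleus of female rhesus macaques, cut out with a laser. Members were the probe sets whose annotation gave exactly 1 gene symbol, where that symbol began with NDUFA, NDUFB, NDUFC, NDUFS, NDUFV, UQCR, COX4, COX5, COX6, COX7, COX8 or ATP5, or was SDHA, SDHB, SDHC, SDHD or CYC1. Assembly factors named NDUFAF were left out. This gave 98 probe sets for 59 symbols among the 52707 probe sets that measured transcripts. Complex I had 42 probe sets for 24 symbols, complex II had 4 for 3, complex III had 13 for 7, complex IV had 13 for 10 and complex V had 26 for 15. NDUFA4 and NDUFA4L2 were counted with complex IV, where the NDUFA4 protein sits despite its name. ATP5IF1, which entered by its symbol, encodes an inhibitor of ATP synthase and not a subunit. A further 12 probe sets named a subunit together with another gene and were left out by the rule. SDHD, COX4I1, COX5B and ATP5F1A, subunits at the core of their complexes, were not analysed here.

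Each of the 6 arrays came from 1 monkey, with 2 monkeys in each of 3 groups: placebo, estrogen, and estrogen with progesterone (called both hormones below). Steroids were given for 1 month from silastic capsules placed under the skin. Placebo titles include Ovx, taken to mean ovariectomized. Hormone titles give the treatment and no ovarian status. The labels state neither the steroid dose nor the ages, and the groups share the sex, the capture site, the extraction and the labelling.

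Complexes I to IV of the inner mitochondrial membrane pass electrons from NADH and succinate to oxygen, and complexes I, III and IV pump protons as they do so. Complex V, the ATP synthase, lets the protons flow back and makes ATP. The mitochondrial genome encodes part of the core of every complex except complex II. All of the members here are made from nuclear genes, translated in the cytosol and imported. Neurons draw most of their ATP from this pathway, and most of its subunits are made in every cell type, so their transcripts do not mark a cell type.

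Signal stood further above background on some arrays than on others, which bears on every value below. Background was read from 59 control probe sets of bacterial and tag origin, and an array's floor was their 95th percentile. The floor was a signal of 216 and 221 (placebo), 29.99 and 51.6 (estrogen) and 74.9 and 283 (both hormones). The share of all transcript probe sets above the floor was 37.3% and 36.4%, 62.2% and 58.6%, and 49.6% and 28.7% in the same order. Estrogen 1, estrogen 2 and estrogen+progesterone 1 are called the high-signal arrays below and the other 3 the low-signal arrays, a division chosen with the values in view. The signal of the 3' GAPDH control probe set was 2374 and 1413 times that of the 5' set (placebo), 28.0 and 3.41 times (estrogen) and 22.0 and 287 times (both hormones). For beta-actin the same ratio was 523, 298, 31.3, 10.9, 33.9 and 20.2. On the 3 low-signal arrays the 5' signals were below the floor, at 31.2, 77.8 and 263 for GAPDH and 23.3, 17.5 and 40.3 for actin. Ratios there thus have background as their denominator. The 3' actin signal was 814 on estrogen+progesterone 2, against 5219 to 18359 on the other arrays, so its actin ratio cannot be read as a smaller 3' excess. The placebo pair was low-signal and the estrogen pair high-signal, so in estrogen against placebo the hormone cannot be told apart from the signal of the arrays.

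**Figure D1:**
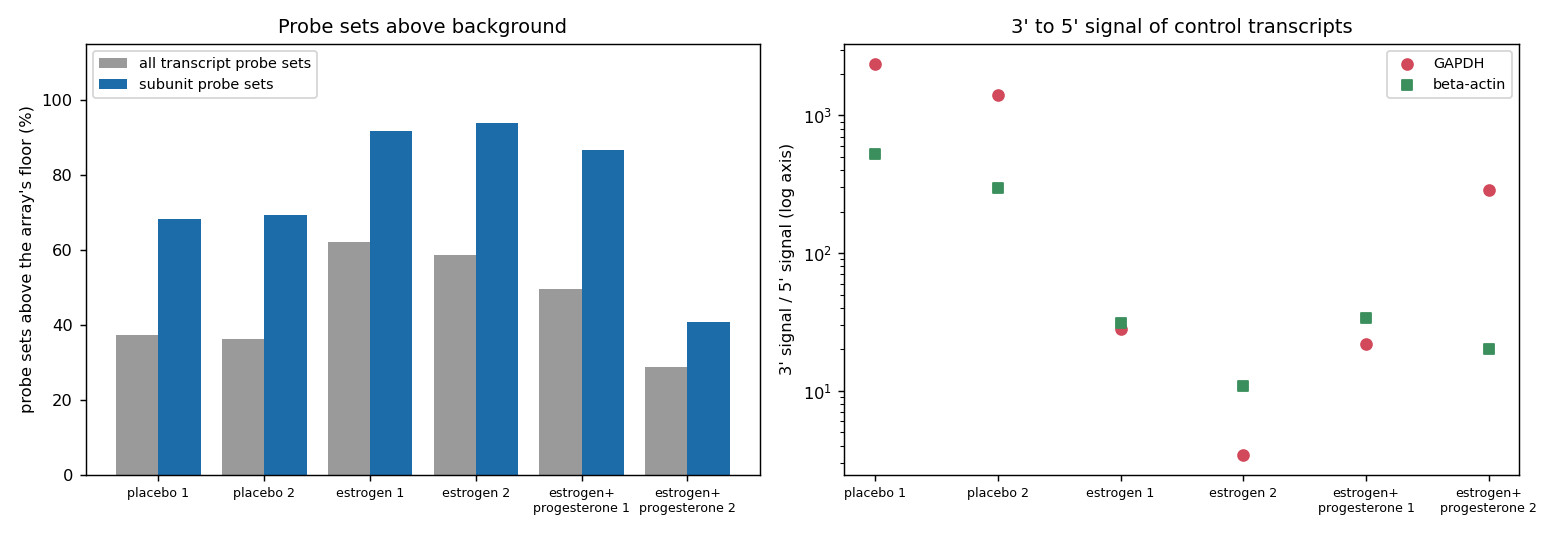
Left, percentage of all transcript probe sets (grey bars) and of the 98 subunit probe sets (blue bars) above each array's floor; right, ratio of 3' to 5' control signal for GAPDH and beta-actin on a log axis, 1 point per array. The subunit bars run from 40.8% on estrogen+progesterone 2 to 93.9% on estrogen 2, and the GAPDH ratio is highest on the placebo arrays, at 2374 and 1413. On the placebo arrays and estrogen+progesterone 2 the 5' signals were below the floor.

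Subunit transcripts were among the stronger signals on 5 of the 6 arrays. Of the 98 probe sets, 67 and 68 (placebo), 90 and 92 (estrogen) and 85 and 40 (both hormones) were above the floor. Ranked among all transcript probe sets of the same array, the median member had a percentile of 82.7 and 90.8 (placebo), 94.2 and 94.9 (estrogen) and 94.3 and 61.3 (both hormones). Estrogen+progesterone 2 was thus below the other 5 arrays in both measures, and its partner lay with the estrogen pair. All 5 complexes shared this order: the median percentile on estrogen+progesterone 2 was 64.4 for complex I, 16.4 for II, 64.3 for III, 64.7 for IV and 56.9 for V, the lowest of the 6 arrays in each. On the other 5 arrays it was 91.4 to 94.7 for complex I, 55.2 to 93.3 for II, 79.8 to 94.9 for III, 78.1 to 97.7 for IV and 81.3 to 95.6 for V. Across the 98 members, normalized log2 values correlated at r of 0.932 between the estrogen arrays and at 0.972 and 0.933 between these and estrogen+progesterone 1. The placebo pair correlated at 0.751 and the pair given both hormones at 0.370. Over all 26354 tested probe sets r was lower, at 0.863 for the estrogen pair, 0.518 for the placebo pair and 0.0002 for the pair given both hormones. Between estrogen+progesterone 2 and the estrogen arrays it was -0.05 and -0.04. Each r is over probe sets of 2 arrays and shares their depth, and probe sets are no independent replicates.

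**Figure D2:**
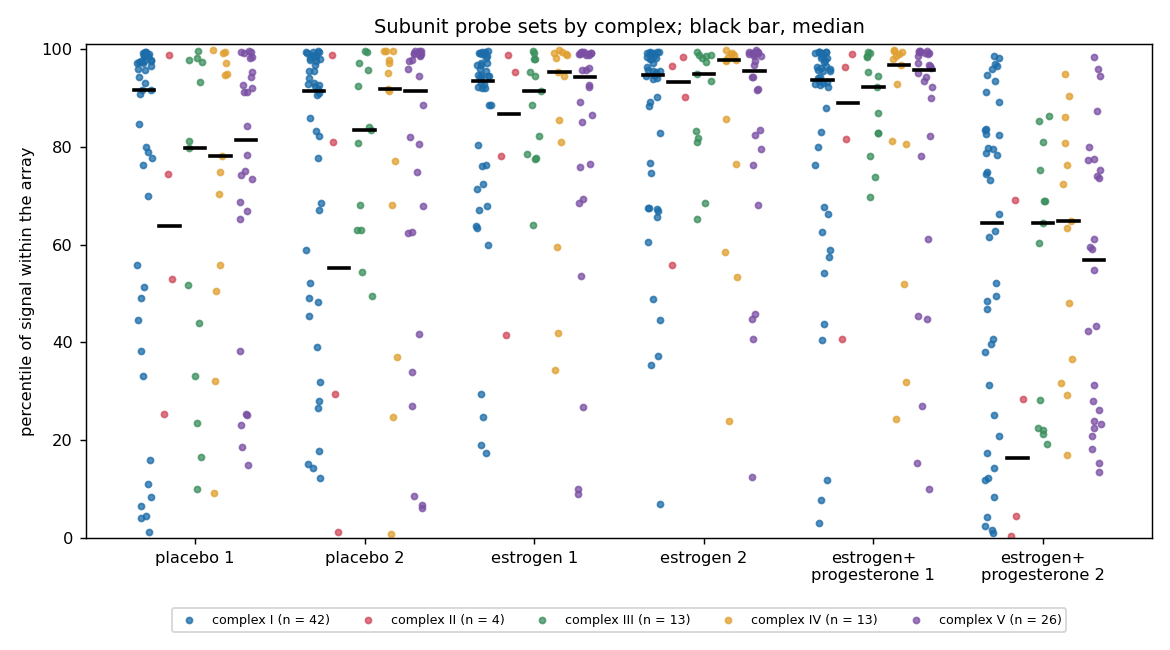
Percentile of each subunit probe set's signal among all transcript probe sets of the same array, with 1 point per probe set, colours for complexes I to V and a black bar at each median. The 5 medians of estrogen+progesterone 2 lie between 16.4 and 64.7, each below the medians of the same complex on the other 5 arrays.

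Taking for each gene the probe set with the highest mean log2 value, 55 of 59 genes exceeded the floor on all 3 high-signal arrays, 43 on both placebo arrays, 27 on estrogen+progesterone 2, and 23 on all 6. The 4 that missed at least 1 high-signal array were NDUFV3, COX4I2, COX6A2 and ATP5PB. None of the 3 complex II genes and 1 of the 7 complex III genes was above the floor on all 6 arrays, against 12 of 24 for complex I, 3 of 10 for complex IV and 7 of 15 for complex V. COX6A2, the heart and muscle isoform of a complex IV subunit, was below the floor on every array. COX7A1, the heart and muscle isoform of another, gave 879 and 649 (placebo), 1393 and 2126 (estrogen) and 1757 and 161 (both hormones), and was above the floor on all but the last of these. COX4I2, the lung isoform of subunit IV, gave 163 and 489 (placebo), 75 and 77.6 (estrogen) and 23.4 and 78.1 (both hormones). That placed it above the floor on placebo 2 and both estrogen arrays, and below it on placebo 1 and both arrays of both hormones. The floors were lower on the estrogen arrays than on the other arrays. COX6B1, COX7B and NDUFA4 were above the floor on all 6 arrays, and NDUFA4L2, a relative of NDUFA4 known from hypoxic cells, on 4. COX6A1, COX6B2, COX7A2L, COX7B2 and COX8C, the other isoforms of these groups, were not analysed here.

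Markers of several cell types were present in the captured material. On all 3 high-signal arrays 3 of 5 serotonin neuron markers, 5 of 5 general neuron markers, 6 of 6 astrocyte, 3 of 3 oligodendrocyte, 6 of 8 microglia, 3 of 5 endothelium and 0 of 2 erythrocyte markers were above the floor, counting those named on the array. TPH2, the enzyme that defines serotonin neurons, was above the floor on the estrogen arrays alone, and no marker had a signal of 0. The astrocyte markers' summed signal was 19047 and 21815 (placebo), 56937 and 60095 (estrogen) and 65057 and 3168 (both hormones). That of the general neuron markers was 4773 and 10026, 22623 and 25868, and 20124 and 1621 in the same order. For oligodendrocytes it was 33774 and 46791, 36856 and 52739, and 51218 and 2723. The tested astrocyte, neuron and oligodendrocyte probe sets had median log2 differences of 1.21, 0.76 and 1.23 in estrogen against placebo. They had -1.07, -2.11 and -1.68 in both hormones against estrogen, the same directions as the subunits below. The microglia medians were 0.38 and -0.64. The serotonin neuron markers, those of the captured cell type, had medians of 0.08 and 0.29 over 4 tested probe sets. Their summed signal over 5 genes was 1105 and 1261 (placebo), 1110 and 633 (estrogen) and 801 and 1480.0 (both hormones), highest on estrogen+progesterone 2. These sums include signals below the floor. Only 2 of the 5 were above it on all 3 low-signal arrays, whose floors were 216, 221 and 283. The sums thus do not rank the arrays by their content of serotonin neurons. The endothelium medians were -0.04 and -0.15 and the erythrocyte medians -1.73 and 0.49. The serotonin neuron, endothelium and erythrocyte markers thus did not follow the subunits in every direction or size. The part of any list in the subunit values was not tested. Fewer cells of a type and less RNA per cell cannot be told apart in such samples.

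Estrogen against placebo asks what estrogen alone does. Subunit probe sets of all 5 complexes were more often higher with estrogen than lower, and none passed the test. Of the 87 probe sets with enough signal to be tested, 0 had an adjusted p under 0.05 (limma, Benjamini-Hochberg over 26354 probe sets, against 0% of all tested), with 0.635 the smallest. At an unadjusted p under 0.05, 8 were higher and 0 lower, against 4.59% and 3.24% of all tested probe sets. Several of the 8 were not the strongest probe set of their gene, and with 1 probe set per gene 3 of 56 had such a p. Among the 8, only the COX5A probe set had placebo signals over the floor. The placebo signals of the others were all under it, so their differences rest on background values. The log2 difference was above 0 for 61 of 87, or 70.1%, against 55.3% of all tested, and its median was 0.57 for the members and 0.17 for all. Without placebo 1 these medians were 0.29 and 0.11, and the gap between them fell from 0.40 to 0.18. Both estrogen arrays were above both placebo arrays for 36 members and below for 15, or 41.4% and 17.2%, against 29.0% and 24.8% of all tested. By complex, 24 of 37 probe sets were above 0 for complex I (median 0.39), 2 of 3 for II (2.27), 10 of 13 for III (0.77), 8 of 12 for IV (0.57) and 17 of 22 for V (0.93), and differences between complexes were not tested. The median standard error of a member's difference was 1.10, larger than the medians of all complexes except II. Without quantile normalization the member median was 1.26 and that of all tested -0.09, a gap of 1.35, so the direction held and the size depended on scaling. With the low or high signal class of the array as a covariate the direction turned, with a member median of -2.05 and 22 of 87 above 0. That setting subtracts the gap between the 2 arrays of both hormones, so the turn rests on that pair.

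In complex I, NDUFA9, an accessory subunit of the peripheral arm, had signals of 109.95 and 62.7 (placebo), 957 and 1092 (estrogen) and 1008 and 16.5 (both hormones). It was below the floor on all 3 low-signal arrays and above it on all 3 high-signal arrays. Estrogen minus placebo was 3.46 ± 1.38 on the log2 scale (SE, n = 2 monkeys per group; adjusted p = 0.635 from limma). Where both arrays of a group were below the floor, a bound was computed by replacing their values with the floor where that was higher, once on the normalized scale and once on the deposited signals. It put NDUFA9 at least 4.49-fold higher with estrogen after normalization and 4.68-fold on the deposited signals. NDUFB6, an accessory subunit of the membrane arm, gave 166 and 342 (placebo), 949 and 1263 (estrogen) and 899.8 and 117 (both hormones), a difference of 1.95 ± 1.11, with both estrogen arrays above both placebo arrays. The nuclear-encoded core subunits named here, most of which carry the flavin or iron-sulfur clusters, had values of both signs. NDUFS1, the largest of them, had 2034 and 304 (placebo), 5496 and 4796 (estrogen) and 5336 and 635 (both hormones) and a difference of 1.70 ± 1.14, with placebo 2 far below placebo 1. NDUFV1, which binds the flavin, had 543 and 79.2 (placebo), 585 and 1151 (estrogen) and 495 and 374 (both hormones), a difference of 1.60 ± 1.12, and its groups overlapped. NDUFS3 gave 369.98 and 537 (placebo), 1582 and 2661 (estrogen) and 1502 and 363 (both hormones), a difference of 1.34 ± 0.90, again with no overlap of estrogen and placebo. NDUFV2, NDUFS7 and NDUFS8 had differences of -1.003 ± 0.88, -0.70 ± 0.99 and -0.21 ± 0.95, below 0 in each. The second NDUFV2 probe set was also below 0 (-0.16 ± 1.10). The second NDUFS7 probe set had 1.73 ± 1.27, and the second of NDUFS8, too weak to be tested, had 3.26. Placebo signals of these NDUFS7 and NDUFS8 probe sets were under the floor, at 24.2 and 199, and at 20.1 and 25.7. Their bounds with estrogen were 0.76-fold and 1.08-fold on the deposited signals, and 1.33-fold and 1.70-fold after normalization. A bound under 1 shows no rise, so the NDUFS7 sign is not settled on the deposited scale.

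Complex II had the fewest probe sets. SDHB, the iron-sulfur subunit of succinate dehydrogenase, had signals of 174 and 329 (placebo), 1373 and 1543 (estrogen) and 1539 and 66.2 (both hormones). The 3 high-signal arrays lay close together and well above the other 3, and estrogen minus placebo was 2.27 ± 1.27 on the log2 scale (adjusted p = 0.661 from limma). SDHC, a membrane anchor, gave 281 and 9.56 (placebo), 238 and 647 (estrogen) and 300.4 and 7.71 (both hormones) and a difference of 2.45 ± 1.47; its placebo 1 signal was above that of estrogen 1 as deposited and below it after normalization. SDHA, the flavoprotein that oxidizes succinate, gave 1425 and 1620.4 (placebo), 3780.1 and 2782 (estrogen) and 4159 and 269.9 (both hormones) and a difference of -0.11 ± 1.12. The SDHA value was thus near 0 beside those of SDHB and SDHC, and the gap between these genes was not tested.

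In complex III, UQCRFS1, the Rieske iron-sulfur protein that takes electrons from ubiquinol, had signals of 33.6 and 217 (placebo), 1348 and 1864 (estrogen) and 1107 and 47.2 (both hormones). Like NDUFA9 it was below the floor on all 3 low-signal arrays, if narrowly on placebo 2. Its log2 difference was 3.78 ± 1.35 (adjusted p = 0.635 from limma), and against the floor it was at least 6.36-fold higher with estrogen after normalization and 7.26-fold on the deposited signals. UQCRC2, a core protein, had 136 and 244 (placebo), 230.1 and 1141 (estrogen) and 332 and 401 (both hormones) and a difference of 1.82 ± 0.90. Estrogen 2 stood apart from the other 5 arrays there. UQCRC1, the other core protein, gave 552 and 525 (placebo), 1206 and 2611 (estrogen) and 1245 and 65.8 (both hormones) and a difference of 0.77 ± 1.22. Its other probe sets had 2.56 ± 0.95 and 0.97 ± 1.26. That at 2.56 was below the floor on both placebo arrays. Its bound with estrogen was 2.75-fold after normalization and 2.20-fold on the deposited signals. CYC1, which holds heme c, gave 902 and 702 (placebo), 2725 and 3123 (estrogen) and 3013 and 269 (both hormones) and a difference of 0.66 ± 1.07. UQCRQ, a small subunit near the quinone site, had a difference of -0.29 ± 1.14.

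In complex IV, COX5A, a subunit on the matrix side of cytochrome c oxidase, had 3 probe sets that all differed in the same direction. The probe set with the highest mean had 283 and 1052 (placebo), 4272 and 2624 (estrogen) and 4409 and 245 (both hormones), a log2 difference of 1.72 ± 1.30 (adjusted p = 0.727 from limma). The other 2 gave 256 and 243 (placebo), 1196 and 1986 (estrogen) and 867 and 315 (both hormones), and 307 and 503 (placebo), 3929 and 3412 (estrogen) and 3299.8 and 38.5 (both hormones), with differences of 2.36 ± 0.87 and 2.34 ± 1.53. All 3 were higher on both estrogen arrays than on both placebo arrays. Differences within isoform pairs were not tested. COX7A1 had a value of 0.13 ± 1.12 and the stronger COX7A2 probe set 0.60 ± 1.08, and NDUFA4 had -0.09 ± 1.11 and NDUFA4L2 -0.21 ± 0.96. COX6B1, COX7B, COX8A and COX4I2 had 0.54 ± 1.32, -0.43 ± 1.04, 0.67 ± 1.11 and -0.94 ± 0.96.

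In complex V, the catalytic beta subunit ATP5F1B had the largest difference of any member, 4.21 ± 1.04, in the probe set described with its partner below. The gamma subunit ATP5F1C, the shaft of the rotor, had 481 and 1973 (placebo), 4747 and 4803 (estrogen) and 5426 and 131 (both hormones) and a difference of 1.15 ± 1.45. ATP5PO, a part of the stalk that holds the catalytic head still, gave 483 and 1753 (placebo), 3997 and 5332 (estrogen) and 3205 and 52.1 (both hormones) and a difference of 1.18 ± 1.51. The genes for the c subunit of the rotor ring, whose mature protein is the same, had differences of -0.46 ± 0.96 for ATP5MC1, 0.28 ± 0.80 for ATP5MC2, 1.12 ± 1.25 for ATP5MC3, and 1.39 ± 1.27 for the stronger of the 2 probe sets named by the older symbol ATP5G1. The weaker ATP5G1 probe set had -0.88 ± 0.87, with both estrogen arrays below both placebo arrays, and the second ATP5MC1 probe set had 1.34 ± 1.03, so the signs differed within both symbols. ATP5F1D, the delta subunit, was the member with the lowest value, with 1234 and 1036 (placebo), 418 and 774 (estrogen) and 606 and 770.1 (both hormones) and a difference of -1.66 ± 0.90 (adjusted p = 0.656 from limma). Its sign turned to 0.28 with each array centred on its median and to 1.39 with scaling to hybridization controls, and its other probe set gave -0.24 ± 1.39. The inhibitor ATP5IF1 had 237 and 618 (placebo), 1594 and 1658 (estrogen) and 1776 and 216 (both hormones), a difference of 1.46 ± 1.14, with no overlap of estrogen and placebo.

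**Figure D3:**
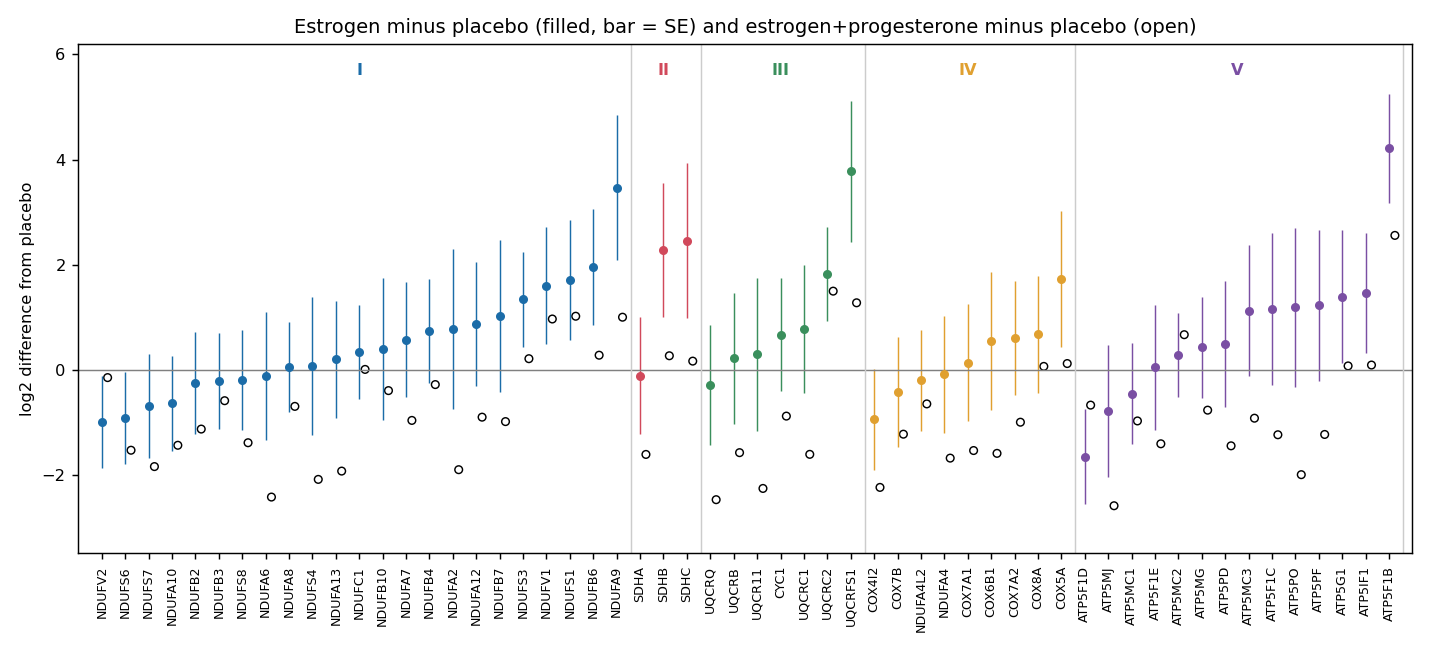
Log2 difference from placebo for the 56 genes with a tested probe set, by complex; filled points with bars are estrogen minus placebo ± SE and open circles are both hormones minus placebo. The filled points run from -1.66 for ATP5F1D to 4.21 for ATP5F1B, and most open circles lie below the filled point of the same gene.

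Both hormones against placebo asks what the combined treatment does. This comparison shares the placebo arrays with the one above. Here 0 of 87 members passed (limma, 0% of all tested, smallest adjusted p = 0.992), and at an unadjusted p under 0.05 there were 4 higher and 1 lower, against 2.05% and 1.24% of all tested. Differences were below 0 for 56 of 87 members, or 64.4%, against 51.3% of all tested (above 0, 31 against 48.7%), with a median of -0.67 for the members and -0.03 for all. Groups that did not overlap numbered 8 higher and 13 lower, against 12.4% and 12.3% of all tested. Medians by complex were -0.46 for I, 0.16 for II, -0.43 for III, -0.84 for IV and -0.95 for V. The direction did not hold under other scaling: the member median was -0.17 without quantile normalization, 0.27 with each array centred on its median and 0.59 with scaling to hybridization controls, beside -0.16, 0.28 and 0.49 for all tested. It also rested on 1 array, being 0.60 without estrogen+progesterone 2 (65 of 87 above 0) and -1.93 without estrogen+progesterone 1.

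Of the 7 genes named by the rule in this comparison 5 had values below 0, and all 5 had signals near or below the floor of 283 on estrogen+progesterone 2. NDUFA6, an accessory subunit of complex I, had 2617 and 4303 (placebo), 6633 and 6234 (estrogen) and 6018 and 253 (both hormones), a difference of -2.43 ± 1.22, and its other 4 probe sets had -0.62, -0.06, -0.46 and 0.11. UQCRQ had 3815 and 4765 (placebo), 7615 and 6159 (estrogen) and 6088 and 307 (both hormones), a difference of -2.48 ± 1.14. ATP5MJ, a small membrane subunit of the ATP synthase, had 660.1 and 1003 (placebo), 926 and 746 (estrogen) and 1069 and 46.1 (both hormones), a difference of -2.59 ± 1.25. In all 3, estrogen+progesterone 1 was above both placebo arrays in the deposited signals and below both after quantile normalization, so its place depended on scaling, while its partner was low on both scales. NDUFS7, which carries the last iron-sulfur cluster before the quinone, had 2656 and 1294 (placebo), 2940.4 and 2279.8 (estrogen) and 2767 and 339.9 (both hormones) and a difference of -1.85 ± 0.99. For NDUFS7 too, estrogen+progesterone 1 was above both placebo arrays as deposited and below both after normalization. COX4I2 was the exception, being below the floor on both arrays of both hormones and on placebo 1. Its difference was -2.24 ± 0.96. UQCRC2 and ATP5F1B had values above 0, of 1.49 ± 0.90 and 2.55 ± 1.04. The adjusted p from limma was 0.992 for each of these 7.

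Both hormones against estrogen asks what progesterone adds. The members were below 0 on average, and their median was near 0 when 1 of the 2 monkeys was left out. Differences were below 0 for 77 of 87 members, or 88.5%, against 57.4% of all tested, with a median of -1.29 for the members and -0.22 for all. By complex the median was -1.01 for I, -2.01 for II, -1.40 for III, -1.45 for IV and -1.56 for V. None passed (limma, 0 of 87, 0% of all tested, smallest adjusted p = 0.799), and at an unadjusted p under 0.05 there were 0 higher and 1 lower, against 1.48% and 0.277% of all tested. Groups did not overlap for 3 members higher and 17 lower, against 17.6% and 16.6%. Without estrogen+progesterone 2 the member median was 0.06, beside 0.04 for all tested, with 50 of 87 members above 0 and medians by complex of 0.06, 0.09, 0.01, 0.04 and 0.10. Without estrogen+progesterone 1 the median was -2.39, and 31 members were called lower and 1 higher of 84 tested (limma, adjusted p under 0.05), against 13.7% of all tested; that fit has 1 array of both hormones and takes its spread from the other 2 pairs.

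The gap within the pair given both hormones was large for the subunits. Between its 2 arrays the median absolute gap of the 87 members was 2.70 on the log2 scale, against 1.08 for the placebo pair and 0.35 for the estrogen pair, and over all tested probe sets the gaps were 1.55, 0.92 and 0.39. Only 13 of 87 members were higher on estrogen+progesterone 2 than on estrogen+progesterone 1, with a median difference of -2.54 for the members and -0.40 for all tested. The lowest of the 6 normalized values was on estrogen+progesterone 2 for 61 of 87 members, or 70.1%, against 34.2% of all tested. Estrogen+progesterone 1 itself lay between the 2 estrogen arrays for 40 members, above both for 28 and below both for 19, and was within 1 log2 unit of the estrogen mean for 84, or 96.6%, against 92.1% of all tested. The arrays estrogen 1, estrogen 2 and estrogen+progesterone 1 were all above the other 3 for 30 of 87 members, or 34.5%, against 21.6% of all tested, so the split by array signal cut across the hormone groups.

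**Figure D4:**
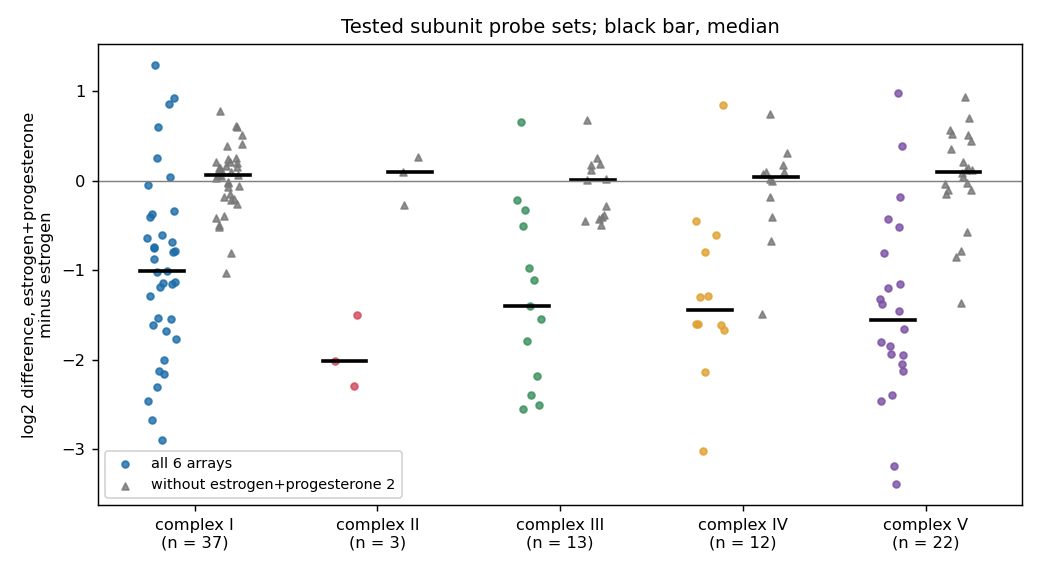
Log2 difference of both hormones minus estrogen for the 87 tested subunit probe sets by complex, from all 6 arrays (coloured circles) and without estrogen+progesterone 2 (grey triangles), with black bars at the medians. The medians of the 5 complexes lie between -2.01 and -1.01 with all arrays and between 0.01 and 0.10 without that one.

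Among genes named in this comparison, ATP5PO had the lowest value, -3.19 ± 1.51, and -0.57 without estrogen+progesterone 2. UQCRFS1 had -2.51 ± 1.35 and -0.43 without that array. NDUFA6 and UQCRQ had -2.30 ± 1.22 and -2.18 ± 1.14, and -0.27 and -0.38 without it. ATP5MC3 had 507 and 1575 (placebo), 4614 and 4041 (estrogen) and 4294 and 226 (both hormones) and a difference of -2.05 ± 1.25, and -0.10 without it. COX4I2 was again different, at -1.30 ± 0.96 and -1.49, above the floor on the estrogen arrays and below it on both arrays of both hormones. The floors differed, at 29.99 and 51.6 (estrogen) and 74.9 and 283 (both hormones). Its deposited signals were 75 and 77.6 (estrogen) and 23.4 and 78.1 (both hormones), so only estrogen+progesterone 1 was lower on that scale. The adjusted p from limma with all arrays was 0.799 for all 6.

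Probe sets of 1 gene often gave different answers. Of the 29 genes with several member probe sets, the lowest and the highest log2 difference lay more than 2 apart in 10 genes in estrogen against placebo, in 12 and 10 genes in both hormones against placebo and against estrogen, and in 18 genes in at least 1 of these. The widest was COX7A2, from -1.003 to 4.44 for both hormones minus placebo. ATP5PO ran from -3.39 to 1.94 for both hormones minus estrogen, the higher value from a probe set above the floor on estrogen+progesterone 2 only. ATP5F1B ran from -1.50 to 2.55 and ATP5MJ from -2.59 to 1.28 for both hormones minus placebo. A probe set's distance from the end of its transcript is not given in the sources used here, so disagreement could not be set against the 3' to 5' ratios, and its cause was not tested.

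Signals below the floor with placebo and above it with hormone were found in 4 tested members. On both placebo arrays these lay under the floor, and on all 4 hormone arrays over it, estrogen+progesterone 2 included, which is 4.60% of 87 against 3.54% of all tested probe sets. The wider pattern, under the floor for the placebo pair and over it for the estrogen pair, held for 10 of 87, or 11.5%, against 16.4% of all tested. Within the wider pattern, probe sets of NDUFA6, NDUFS7 and ATP5F1E had bounds of 0.52-fold, 0.76-fold and 0.88-fold with estrogen on the deposited signals. Such bounds, under 1, show no rise on that scale. COX7A2, a small subunit of complex IV, showed the narrower pattern, over all 4 hormone arrays, in 1 of its 2 probe sets. The signals of that probe set were 21.2 and 8.52 (placebo), 295 and 233 (estrogen) and 293 and 549 (both hormones). There the log2 difference was 3.60 ± 0.86 for estrogen and 4.44 ± 0.86 for both hormones minus placebo, the latter with the smallest unadjusted p of the members in that comparison, 0.00045, and adjusted p values from limma of 0.635 and 0.992. Against the floor it was at least 1.20-fold and 1.84-fold higher on the deposited signals, and 1.76-fold and 3.16-fold after normalization. The other COX7A2 probe set had 623 and 926 (placebo), 3023 and 2184 (estrogen) and 2611 and 238 (both hormones), with differences of 0.60 ± 1.08 and -1.003 ± 1.08.

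ATP5F1B showed the pattern in 1 of its 2 probe sets, with 54.8 and 215 (placebo), 1515 and 4759 (estrogen) and 1504 and 322 (both hormones). The placebo 2 signal lay just under that array's floor of 221, and the last signal just above its floor of 283. The bounds were at least 10.04-fold with estrogen and at least 3.19-fold with both hormones after normalization, and 12.3-fold and 3.19-fold on the deposited signals. The other ATP5F1B probe set had 599 and 338 (placebo), 863 and 1035 (estrogen) and 789.9 and 59.4 (both hormones). UQCRB, a small subunit of complex III, showed it in 1 of 4, with 87.5 and 158 (placebo), 789 and 311 (estrogen) and 458 and 351 (both hormones), differences of 2.31 ± 0.84 and 2.10 ± 0.84, and bounds of at least 2.27-fold and 1.84-fold on the deposited signals (2.65 and 2.29 after normalization). Its other 3 probe sets gave estrogen minus placebo differences of -0.54, 0.21 and 1.72. NDUFS6, a complex I subunit that holds zinc, showed it in 1 of 3, with 138 and 29.1 (placebo), 282 and 206 (estrogen) and 271 and 294 (both hormones), differences of 2.26 ± 0.88 and 2.21 ± 0.88, and bounds of at least 1.10-fold and 1.29-fold on the deposited signals (1.67 and 1.62 after normalization). Its estrogen 2 signal was under the floors of the placebo arrays. Its other 2 gave -0.93 and 0.48. In each of the 4 genes at least 1 other probe set was above the floor with placebo, so no gene as a whole was below the floor there. All 4 differences from placebo were above 0 under each scaling tried. The 4 probe sets were singled out after their values were seen.

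**Figure D5:**
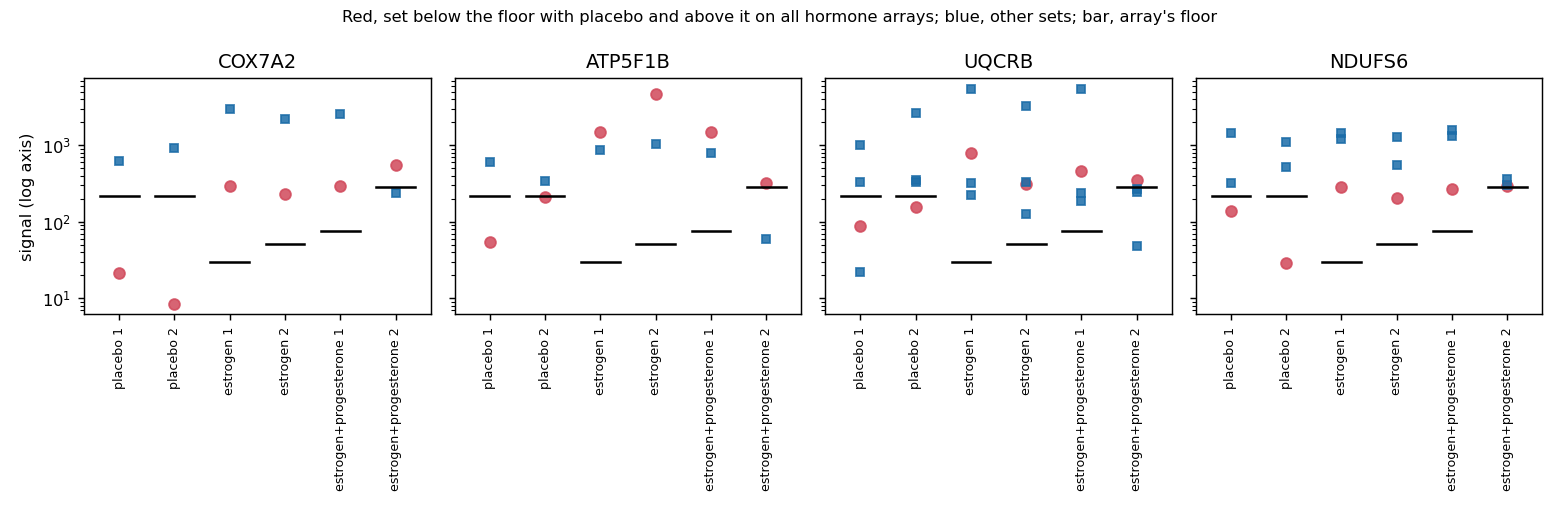
Deposited signal on a log axis of every probe set of COX7A2, ATP5F1B, UQCRB and NDUFS6 on the 6 arrays; red circles are the probe set below the floor with placebo and above it on all 4 hormone arrays, blue squares the gene's other probe sets, and black bars the array's floor. On the placebo arrays the red circles lie under the bars, at 8.52 to 215, as does 1 blue square of UQCRB at 22.4 on placebo 1, while at least 1 blue square of each gene lies above the bar on every placebo array.

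Other genes of the pathway were counted from lists. Of the assembly factors and electron carriers, 34 of 44 genes were named, and 36 of their 45 tested probe sets were above 0 for estrogen minus placebo (median 0.59), against 55.3% of all tested (median 0.17). ACAD9, an assembly factor of complex I, had 23.6 and 49.5 (placebo), 481 and 412 (estrogen) and 279.5 and 69.7 (both hormones) and a difference of 3.46 ± 0.98, and BCS1L, which inserts the Rieske protein into complex III, had 97.3 and 67.3 (placebo), 456 and 310.3 (estrogen) and 399 and 131 (both hormones) and 2.48 ± 0.93; both were below the floor with placebo and above it on the 3 high-signal arrays alone. In the list of the citric acid cycle and the pyruvate dehydrogenase complex, which feed the chain, 11 of 17 genes were named. Of its 14 tested probe sets, 13 were above 0 (median 0.80). Mitochondrial ribosomal proteins, which serve the synthesis of the mitochondrially encoded subunits, were above 0 for 54 of 79 probe sets (median 0.55). Regulators of mitochondrial biogenesis were above 0 for 6 of 12 (median 0.01). The highest of these, PPARGC1A, a coactivator that drives the making of mitochondria, had 185 and 206 (placebo), 433 and 537 (estrogen) and 362 and 319.5 (both hormones) and 1.61 ± 0.80, below the floor with placebo and above it on all 4 hormone arrays. NRF1, GABPA and GABPB1, transcription factors of nuclear genes for the chain, had -1.14 ± 0.87, -1.03 ± 0.87 and -2.23 ± 1.24, with both estrogen arrays below both placebo arrays after normalization. These 6 genes were chosen after their values were seen. For both hormones minus estrogen the medians of the 4 lists were -0.66, -0.99, -0.78 and -0.26 in that order, and none of their probe sets passed in any comparison (limma, adjusted p at least 0.635). At an unadjusted p under 0.05, estrogen minus placebo had 4, 1, 6 and 0 higher, or 8.89%, 7.14%, 7.59% and 0%, and 0 lower in any of them, against 4.59% higher and 3.24% lower of all tested.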

How the data were processed

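RNA of laser-captured serotonin neurons was purified on columns and biotin-labelled, per the labels' protocols, with 1 array for each of 6 monkeys; groups were read from the titles. Deposited values are linear intensities, 1 for each probe set on each array, with a 2% trimmed mean of about 200 on every array. The summarization software is not given in the sources used here. Scaling of this kind lifts the background as well on arrays with little labelled RNA. The number of arrays limits the precision.

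Control probe sets were left out, 99 for spiked and housekeeping sequences and 59 for reporter genes. Of the other 52707, the platform annotation supplied with the data gave 24956 a single symbol, 361 several and 27390 none, and these last are unnamed here; 24616 of the 24956 and 96 of the 98 members matched the RefSeq gene table, and the 2 sets of ATP5G1 keep the annotation's name. Positions are not given because the annotation's genome build is not named.

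After adding 16, log2 values were quantile normalized, so differences understate changes of low signals. The 26354 probe sets whose mean reached the 50th percentile were tested. Group means were estimated from all 6 arrays together in limma 3.58.1 under R 4.3.3 (lmFit and eBayes, 3 residual degrees of freedom, two-sided, Benjamini-Hochberg, threshold 0.05). Errors are moderated standard errors. An exact permutation test of 2 against 2 cannot give a p below 0.333 and was not used. The code of the fit was run on simulated data with large shifts and equal noise on all arrays, smaller than the spread here. That run checked the code and does not show how the fit performs on these data.

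Each gene is named by its member probe set with the highest mean. Named were the catalytic and redox subunits, the isoform groups and, in each comparison and complex, up to 2 genes with the smallest unadjusted p among those with a log2 difference of 1 or more and no overlap of groups, and up to 4 genes whose probe sets disagreed most. The members and lists were chosen with earlier results of these data known. ATP5IF1, on the list of assembly factors as well, was counted with the members only. Alternatives were other offsets, scalings and filters, omitting arrays in turn, a block for the replicate number, array weights, a trended prior, 2 groups alone, 1 probe set per gene, high-signal arrays only, the signal class as a covariate, and, chosen after seeing the data, reporter probe sets kept and floor bounds on the deposited signals.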

Additional observations from a re-analysis of the deposited data

How the results depend on the processing

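No member passed the test in any comparison, and this held under every alternative for both hormones minus placebo. With array weights in estrogen minus placebo, 435 probe sets were called, or 1.65% of all tested, and 288 of them were higher. Of the 87 tested members 4 were called, all higher. These were ATP5F1B (adjusted p = 0.0347 from limma), COX7A2 (0.0339), NDUFA9 (0.0439) and UQCRFS1 (0.0404). The weights were 3.95 on the estrogen arrays, 0.793 on the placebo arrays and 0.319 on those of both hormones. In both hormones minus estrogen, leaving out 1 array gave 0 to 3613 calls over all probe sets and 0 to 32 over the members, the upper ends without estrogen+progesterone 1. All other settings gave 0.

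The median for estrogen minus placebo, 0.57, was 2.50 with each array centred on its median, 3.64 with scaling to hybridization controls and -2.05 with the signal class as a covariate; leaving out 1 array gave 0.29 to 0.63. The median for both hormones minus placebo, -0.67, was 0.59 with scaling to hybridization controls and -1.90 with the signal class; leaving out 1 array gave -1.93 to 0.60. The median for both hormones minus estrogen, -1.29, was -3.14 with scaling to hybridization controls, 0.056 with the signal class and 0.060 with high-signal arrays only; leaving out 1 array gave -2.39 to 0.061. The signal class takes its value from the pair given both hormones alone. With it, estrogen minus placebo has the gap of that pair subtracted. Both hormones minus estrogen becomes estrogen+progesterone 1 minus the estrogen mean. The values of 0.056, 0.060 and 0.061 thus all rest on estrogen+progesterone 1 and are not separate checks. The cause of the shifts with scaling was not tested. The fit of high-signal arrays gave no value against placebo, which has no such array. Medians with offsets of 1 and 64, other filters, 2 groups alone, 1 probe set per gene and reporter probe sets kept moved by less than 0.99, the pooled spread of array medians within groups.

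Deviations of same-numbered arrays from their group means correlated at r of -0.03, -0.06 and 0.08 between groups over 26354 probe sets. These deviations also carry the signal gap within each group. The r values thus cannot tell whether the numbers pair the monkeys or mark a shared run. With the replicate number as a block 0 members and 0 probe sets were called in each comparison, and the medians were 0.57, -0.67 and -1.29.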
